A study of Mus musculus with 10 samples.

Results

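Creatine and adenylate energy buffering was examined through 9 genes, Ckm, Ckmt2, Ckb, Slc6a8, Gatm, Gamt, Ak1, Ampd1 and Ampd3. They were taken by name, not by a cut-off on their values, though with earlier results of these data known. All 9 were among the 16112 genes measured. Each was located by its Ensembl identifier in a GRCm38 gene annotation. Muscle contraction uses ATP faster than oxidative metabolism can replace it at the onset of work, and phosphocreatine serves as the immediate reserve from which creatine kinase regenerates ATP. Creatine itself is made by the successive actions of the Gatm and Gamt enzymes and is carried into the fiber by the Slc6a8 transporter. When ADP accumulates, adenylate kinase converts it to ATP and AMP, and AMP deaminase removes the AMP as IMP. Fast fibers are known for a large cytosolic phosphocreatine system, while oxidative fibers couple creatine kinase to the mitochondria.

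Gene expression was compared between the extensor digitorum longus (EDL) and psoas, which are fast muscles, and the soleus, which is rich in slow fibers. Total RNA libraries came from 3 EDL, 3 psoas and 4 soleus muscles of wild-type mice, which also served another study, from a B6C3Fe a/a-Ttnmdm/J colony, whose mutant titin allele these homozygous wild-type animals did not carry. In EDL and psoas alike, replicates 1 and 2 were from males of 42 and 54 days and replicate 3 was from a female of 44 days. Soleus 1 was from a male of 42 days, soleus 2 and 4 were from females of 44 days, and soleus 3 was from a mouse of 32 days whose sex was not given. By the animal codes in the labels, 3 pairs of libraries of different muscles came from the same mouse, namely psoas 1 with soleus 1, EDL 3 with soleus 2, and psoas 3 with soleus 4. The labels hold 7 animal codes, more than the mice counted in the study's methods, so which libraries share a mouse is uncertain. Replicates within a muscle carried different animal codes.

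The libraries held 12737971 to 50431713 counts each. By the study's supplement, RNA integrity was higher in every EDL library than in every psoas or soleus library, and its part in the differences was not tested. Scaling factors were lowest in psoas 1 (0.751) and psoas 2 (0.719), the deepest EDL and psoas libraries were the trimmed ones, and no soleus library had been read-trimmed, whereas EDL 1, EDL 2, psoas 1 and psoas 2 had. Muscle identity followed the labels. Each of the 7 slow fiber markers was higher in soleus than in either other muscle, among them the slow myosin heavy chain Myh7. Its mean level, in counts per 1000000 counts of the scaled library (CPM), was 9820 in soleus, 51.5 in EDL and 6.13 in psoas. Summed over the list, slow markers spanned 17900 to 29300 CPM in soleus, 59.5 to 332 in EDL and 28.4 to 105 in psoas. Of the 8 fast fiber markers, 3 fell in soleus relative to EDL and 4 relative to psoas, among them Myh4, the fastest limb myosin, with log2 differences of -5.16 and -5.46. In whole muscle, fewer fibers of a type and less RNA per fiber cannot be told apart.

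A gene was called different when it changed more than 2-fold and its Benjamini-Hochberg adjusted p in the edgeR quasi-likelihood test was under 0.01. Between soleus and EDL, 3 of the 9 genes passed: Slc6a8 and Ampd3 were higher in soleus, a direction in which 3.59% of all genes were called, and Ampd1 was lower, against 2.18% of all genes. Between soleus and psoas, 4 passed. Ckb and Ampd3 were higher in soleus (2.99% of all genes were called higher), and Ckm and Ampd1 were lower (2.71% of all genes). Psoas and EDL differed in 1 gene, Ckb, which was lower in psoas (1.57% of all genes), and none of the 9 was called higher in psoas, where 0.54% of all genes were. At an unadjusted p under 0.05, 6 of the 9 differed between psoas and EDL in the edgeR test, beside 29% of all genes. DESeq2 called 1 gene higher and 1 lower in psoas, with 6.79% of all genes called in either direction, and limma-voom called 0 higher and 1 lower, with 2.19% of all genes called.

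With an adjusted p under 0.05 and no fold minimum, 6 genes differed between soleus and EDL, 6 between soleus and psoas, and 3 between psoas and EDL. The same criterion was met by 18.6%, 14.5% and 11.1% of all genes in these comparisons. The groups did not overlap in scaled CPM for 6, 7 and 6 of the 9 genes, beside 29.5%, 25.8% and 29.6% of all genes. Such separations can depend on the scaling factors, which were lowest in psoas 1 and psoas 2. The median absolute log2 fold change of the 9 genes was 0.91 between soleus and EDL (0.45 over all genes), 1.26 between soleus and psoas (0.38 over all genes) and 0.68 between psoas and EDL (0.42 over all genes). The comparisons share libraries and are therefore not independent of each other.

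**Figure D1:**
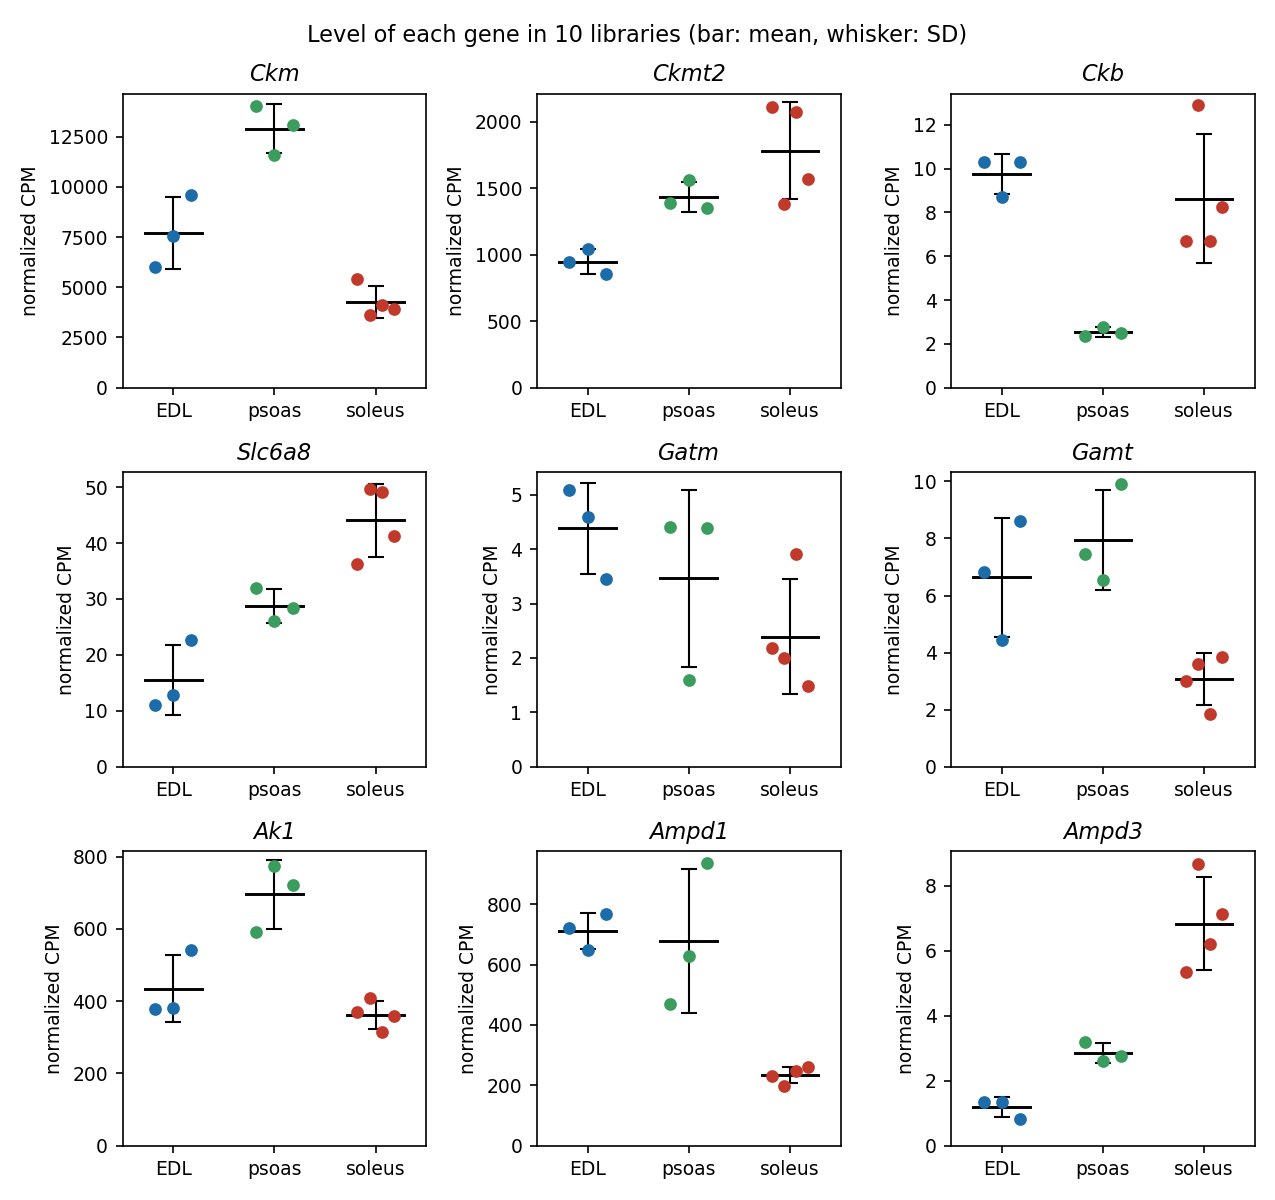
Level of each of the 9 genes in CPM scaled by TMM factors (vertical axes, each starting at 0) in the 3 EDL, 3 psoas and 4 soleus libraries (points), with the mean (bar) and SD (whisker) of each muscle. Ckm and Ak1 were highest in psoas, Ckb lowest in psoas, and Ampd1 and Ampd3 stood at opposite ends in soleus.

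Among the creatine kinases, the cytosolic muscle form was the main transcript everywhere, and its lead over the mitochondrial form was narrowest in soleus. Ckm (ENSMUSG00000030399, chr7:19404776-19422841, plus strand) encodes the cytosolic muscle subunit, which also sits at the M-line beside myosin. Its normalized level was 6010, 7530 and 9600 CPM in EDL 1 to 3, 14000, 11600 and 13100 in psoas 1 to 3, and 5390, 3600, 4110 and 3920 in soleus 1 to 4. All psoas libraries lay above all EDL libraries, and all EDL libraries above all soleus libraries. Ckm fell in soleus relative to psoas by 1.60 on the log2 scale (SE 0.27, 3.04-fold lower, edgeR adjusted p = 0.0025). The difference between soleus and EDL was -0.86 (SE 0.27, edgeR adjusted p = 0.0451) and that between psoas and EDL was 0.74 (SE 0.29, edgeR adjusted p = 0.117), so neither met the criteria. With the replicate number as a block, the soleus and psoas difference was -1.57 with an adjusted p of 0.021 in the edgeR test. That block joins soleus 2 and soleus 3 to fast muscle libraries from mice of other ages. Leaving out psoas 1 or soleus 4 gave edgeR adjusted p values of 0.0102 and 0.0131. Ckm took 0.405% to 0.509% of all counts in soleus, 0.583% to 1.16% in EDL and 0.835% to 1.34% in psoas.

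Ckmt2 (ENSMUSG00000021622, chr13:91853387-91876885, minus strand) encodes the sarcomeric mitochondrial creatine kinase, which passes phosphate from newly made ATP to creatine at the inner membrane. Its level was 947, 1040 and 851 CPM in EDL 1 to 3, 1390, 1560 and 1350 in psoas 1 to 3, and 2110, 1380, 2070 and 1570 in soleus 1 to 4. EDL was the lowest without overlap, while the ranges of psoas and soleus overlapped. No comparison met both criteria. The log2 difference was 0.91 between soleus and EDL (SE 0.22, edgeR adjusted p = 0.0154), 0.31 between soleus and psoas (SE 0.21, edgeR adjusted p = 0.382) and 0.60 between psoas and EDL (SE 0.23, edgeR adjusted p = 0.11).

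Ckb (ENSMUSG00000001270, chr12:111669361-111672338, minus strand) encodes the cytosolic brain subunit, the form typical of nerve, smooth muscle and undifferentiated muscle cells. Its level was 10.3, 8.71 and 10.3 CPM in EDL 1 to 3, 2.35, 2.79 and 2.48 in psoas 1 to 3, and 6.71, 12.9, 6.70 and 8.23 in soleus 1 to 4. Psoas stood apart below both other muscles, whereas EDL and soleus overlapped. Ckb was 3.86-fold lower in psoas than in EDL (log2 difference -1.95, SE 0.27, edgeR adjusted p = 0.00288) and 3.43-fold higher in soleus than in psoas (log2 difference 1.78, SE 0.26, edgeR adjusted p = 0.00111). Soleus and EDL differed by -0.17 (SE 0.24, edgeR adjusted p = 0.64). The psoas libraries held 89, 44 and 35 Ckb counts, and the call between psoas and EDL was lost when EDL 1 or any psoas library was left out, with edgeR adjusted p values of 0.0104 to 0.0128 and log2 differences of -1.92 to -2.03. Between the 2 trimmed libraries of each muscle the difference was -1.86, and between the untrimmed pair it was -2.03. Tendon markers moved in the same direction as Ckb in both of its called comparisons. All 5 tendon markers fell in psoas relative to EDL and 4 of 5 rose in soleus relative to psoas, and their summed level was 464 to 500 CPM in EDL, 26.7 to 68.9 in psoas and 77.0 to 346 in soleus. Between soleus and EDL, where Ckb overlapped, the tendon sums did not. The median log2 difference of the 5 tendon markers there was -1.3, with 0 called. The summed level of the 4 fibroblast markers was 1810 to 3270 CPM in EDL, 555 to 844 in psoas and 554 to 1150 in soleus, with 1 of 4 called lower in psoas than in EDL. The fibroblast markers did not follow Ckb elsewhere. Between soleus and psoas their sums overlapped and 0 of 4 were called by edgeR, DESeq2 or limma-voom (0 at an unadjusted p under 0.05 in the edgeR test), and 2 of 4 were lower in soleus than in EDL. None of these markers was at 0 in any muscle on average, and their part in the Ckb difference was not tested. The 4 smooth muscle markers summed to 31.4 to 70.5 CPM in EDL, 24.5 to 55.3 in psoas and 43.5 to 63.5 in soleus, with overlap between all muscles, and the 4 Schwann cell markers to 13.2 to 20.9, 8.12 to 55.5 and 10.5 to 24.4 CPM. The 4 endothelial markers summed to 114 to 196 CPM in EDL, 104 to 114 in psoas and 131 to 152 in soleus. None was called, and they did not all move in the same direction between psoas and EDL. The 4 macrophage markers summed to 33.2 to 89.9 CPM in EDL, 11.8 to 32.3 in psoas and 29.3 to 45.2 in soleus. Low sums in psoas were thus not limited to tendon markers, and the part of these lists in Ckb was not tested.

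**Figure D2:**
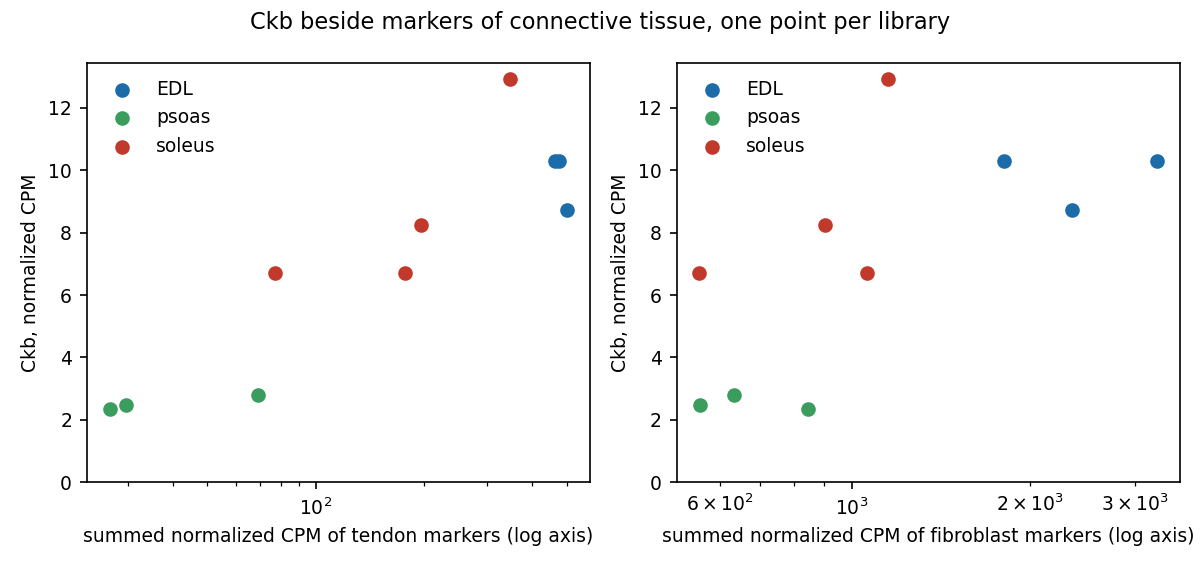
Normalized CPM of Ckb (vertical axes, from 0) against the summed normalized CPM of 5 tendon markers (left) and of 4 fibroblast markers (right), both on log horizontal axes, with one point for each of the 10 libraries. The 3 psoas libraries were the lowest both for Ckb and for the tendon sum. Within muscles, soleus 2 and psoas 2 were the highest of their muscle for both. EDL 2 had the highest tendon sum of EDL with the lowest Ckb.

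Per kilobase of exon, the order of the creatine kinases was Ckm, Ckmt2 and then Ckb in each muscle. In normalized CPM per kilobase of exon (FPKM), Ckm averaged 2650 ± 618 in EDL (SD, n = 3), 4440 ± 420 in psoas (n = 3) and 1460 ± 270 in soleus (n = 4). Ckmt2 averaged 637 ± 64.1, 965 ± 76.2 and 1200 ± 245 FPKM in the same muscles, and Ckb 3.38 ± 0.325, 0.877 ± 0.0784 and 2.98 ± 1.02 FPKM. With exon-union lengths, the ranges of Ckm and Ckmt2 overlapped in soleus alone, where Ckm spanned 1240 to 1850 FPKM and Ckmt2 spanned 930 to 1420 FPKM. This overlap depends on the length used for Ckm, 2913 bases for its exon union against 1235 for its lowest-numbered transcript. The shorter length would raise Ckm, while Ckmt2 has 1486 bases by either length. The Ckm ranks below depend on it in the same way. By mean FPKM, Ckm ranked 32, 29 and 37 and Ckmt2 ranked 80, 62 and 40 of 16032 genes with a length in EDL, psoas and soleus.

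The ratio of Ckmt2 to Ckm within a library does not depend on the scaling between libraries. It was 30.9%, 27.1% and 17.4% in EDL 1 to 3, 19.5%, 26.4% and 20.1% in psoas 1 to 3, and 76.7%, 75.3%, 98.5% and 78.3% in soleus 1 to 4. The soleus values were all above those of the fast muscles. The geometric mean ratio was 3.35-fold higher in soleus than in EDL and 3.75-fold higher than in psoas (two-sided exact permutation p = 0.0571 for each, the smallest that 4 against 3 libraries can give, and 0.137 after adjustment over 12 ratio tests). Psoas and EDL overlapped and differed by -0.16 on the log2 scale (exact permutation p = 0.6, adjusted 0.655, where 3 against 3 cannot go below 0.1). In the untrimmed libraries only, the log2 difference between soleus and EDL was 2.23 against 1.74 over all libraries. That subset holds 1 EDL library, EDL 3, which had the lowest ratio of its muscle. The ratio itself depends on the gene length used. The union of all annotated Ckm exons is 2913 bases while its lowest-numbered transcript has 1235 bases, and with such transcript lengths the geometric mean ratio was 10.3% in EDL, 9.24% in psoas and 34.6% in soleus in place of 24.4%, 21.8% and 81.7%. The fold differences between muscles are the same under both lengths.

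Ckb amounted to 0.108% to 0.173% of Ckm per kilobase in EDL, 0.0169% to 0.0242% in psoas and 0.125% to 0.361% in soleus. Psoas did not overlap with either other muscle, and the geometric mean was 6.55-fold lower in psoas than in EDL (exact permutation p = 0.1, adjusted 0.171) and 10.1-fold higher in soleus than in psoas (exact permutation p = 0.0571, adjusted 0.137). EDL and soleus overlapped, with a difference of 0.62 on the log2 scale (exact permutation p = 0.171, adjusted 0.257).

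**Figure D3:**
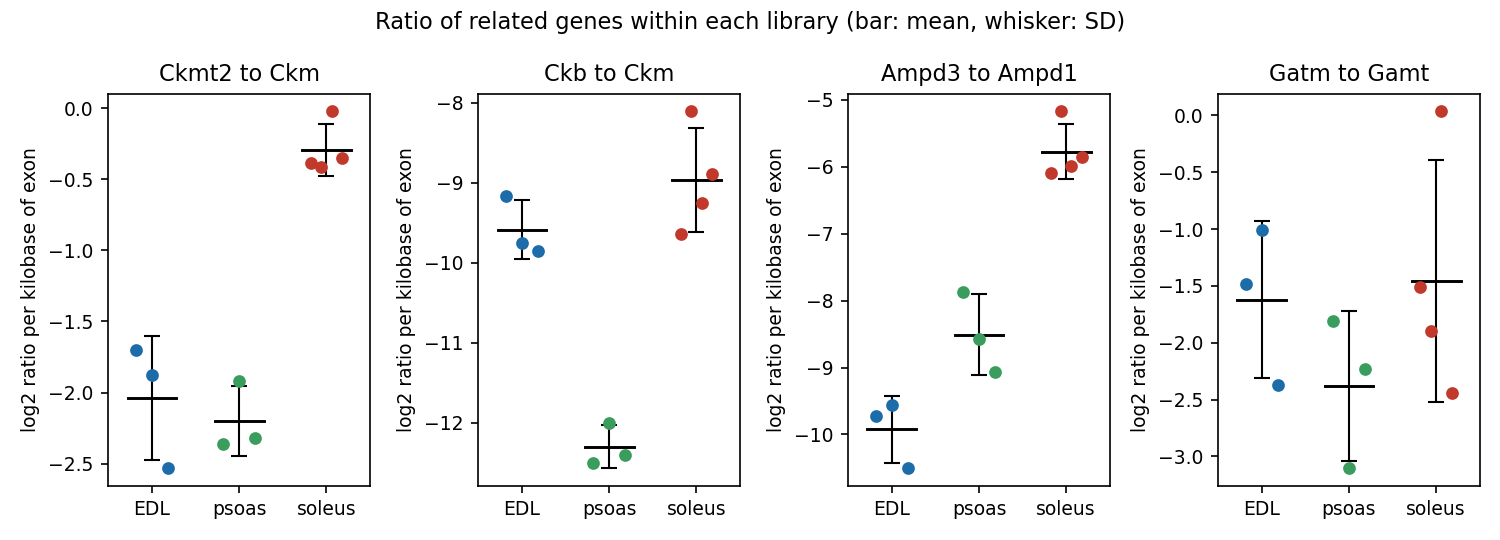
Log2 ratio per kilobase of exon of Ckmt2 to Ckm, Ckb to Ckm, Ampd3 to Ampd1 and Gatm to Gamt (vertical axes) in each of the 10 libraries (points), with the mean (bar) and SD (whisker) of each muscle. Soleus lay above both fast muscles for Ckmt2 to Ckm and Ampd3 to Ampd1, psoas lay below both others for Ckb to Ckm, and the 3 muscles overlapped for Gatm to Gamt.

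The upstream sequences of the creatine kinases are shown because these 3 genes took different orders across the muscles. Each is the 250 bases before the RefSeq start of the gene in GRCm38.p6, written along the gene's strand, with matches to an E-box (CANNTG), a MEF2-type site (CTA and TAG with any 4 bases between) or an estrogen-related receptor element (AAGGTCA) on either strand in capitals. The windows are chr7:19410844-19411093 (plus strand) for Ckm, chr13:91876886-91877135 (minus strand) for Ckmt2 and chr12:111672339-111672588 (minus strand) for Ckb. The Ckm window lies inside the Ckm gene of the GENCODE annotation, which has an additional upstream exon.
Ckm: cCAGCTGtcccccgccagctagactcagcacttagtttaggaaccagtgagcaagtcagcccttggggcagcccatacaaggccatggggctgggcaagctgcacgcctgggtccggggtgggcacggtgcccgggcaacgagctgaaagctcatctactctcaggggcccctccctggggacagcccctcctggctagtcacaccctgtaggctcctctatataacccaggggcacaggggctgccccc
Ckmt2: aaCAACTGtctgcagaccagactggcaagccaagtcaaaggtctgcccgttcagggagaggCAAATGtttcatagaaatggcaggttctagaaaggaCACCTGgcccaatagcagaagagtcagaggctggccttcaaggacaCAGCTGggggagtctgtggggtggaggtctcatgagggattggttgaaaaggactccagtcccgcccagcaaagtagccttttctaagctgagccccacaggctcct
Ckb: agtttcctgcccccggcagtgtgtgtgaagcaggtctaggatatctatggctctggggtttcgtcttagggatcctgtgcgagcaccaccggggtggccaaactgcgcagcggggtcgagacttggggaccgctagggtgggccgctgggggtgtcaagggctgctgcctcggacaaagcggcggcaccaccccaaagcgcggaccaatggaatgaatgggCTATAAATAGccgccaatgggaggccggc

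The Ckm window held 1 E-box, beginning 249 bases before the start, and the Ckmt2 window held 4, beginning 248, 189, 153 and 107 bases before the start. Ckb had no E-box in its window and 1 match to the MEF2-type letters, beginning 29 bases before the start, which also contains the letters of a TATA box. E-box letters occur in 66.2% of 32851 promoter windows of this length, the MEF2-type letters in 3.2% and the receptor element in 4.08%. RefSeq windows were found for 7 of the 9 genes, 12 windows in all, of which 9 held an E-box, 1 the MEF2-type letters (Ckb) and 1 the receptor element (one of the Ak1 windows). These matches describe the letters alone.

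Among the genes of creatine supply, the transporter was higher in soleus than in EDL and the synthesis enzymes were below 10 CPM in every library. Slc6a8 (ENSMUSG00000019558, chrX:73673150-73682502, plus strand), the sodium-dependent creatine importer, measured 11, 12.8 and 22.7 CPM in EDL 1 to 3, 31.9, 26 and 28.3 in psoas 1 to 3, and 36.2, 49.7, 49.1 and 41.2 in soleus 1 to 4. The muscles were ordered EDL, psoas, soleus from lowest to highest, with no overlap between neighbours. Slc6a8 was 2.86-fold higher in soleus than in EDL (log2 difference 1.52, SE 0.24, edgeR adjusted p = 0.00211). The neighbouring steps did not meet the criteria, at 0.90 between psoas and EDL (SE 0.25, edgeR adjusted p = 0.0422) and 0.62 between soleus and psoas (SE 0.24, edgeR adjusted p = 0.111).

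Read trimming moved with the Slc6a8 level within EDL, where the untrimmed library EDL 3 was the highest. Between psoas and EDL the difference was 1.28 among trimmed libraries (2 against 2) and 0.32 between the untrimmed pair, and between the 4 soleus libraries and EDL 3 it was 0.94. With trimming as a covariate the soleus and EDL difference was 1.25 (edgeR adjusted p = 0.0161), and with a proxy for the sequencing run it was 1.29 (edgeR adjusted p = 0.0322). It was 1.27 without EDL 1 (edgeR adjusted p = 0.0134) and 1.39 without EDL 2 (edgeR adjusted p = 0.0154). EDL 3 was also the only EDL library from a female, so trimming, sex and library cannot be told apart here.

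Gatm (ENSMUSG00000027199, chr2:122594467-122611303, minus strand) encodes the amidinotransferase of the first step of creatine synthesis, which is best known from kidney. Its level was 5.09, 4.60 and 3.46 CPM in EDL 1 to 3, 4.41, 1.59 and 4.39 in psoas 1 to 3, and 2.19, 2, 3.91 and 1.48 in soleus 1 to 4. The muscles overlapped in every comparison. Log2 differences were -0.90 between soleus and EDL (SE 0.38, edgeR adjusted p = 0.119), -0.56 between soleus and psoas (SE 0.39, edgeR adjusted p = 0.386) and -0.34 between psoas and EDL (SE 0.41, edgeR adjusted p = 0.63). Gatm counts ran from 25 in psoas 2 to 244 in EDL 2.

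Gamt (ENSMUSG00000020150, chr10:80258151-80261012, minus strand) encodes the methyltransferase that completes creatine, a step best known from liver. Its level was 6.84, 4.45 and 8.62 CPM in EDL 1 to 3, 7.44, 6.53 and 9.91 in psoas 1 to 3, and 3.01, 3.59, 1.83 and 3.85 in soleus 1 to 4. Soleus lay below both fast muscles without overlap, and EDL and psoas overlapped. The soleus and psoas difference of -1.36 (SE 0.30, 2.56-fold) had an edgeR adjusted p of 0.0103, which narrowly missed the threshold of 0.01. The soleus and EDL difference was -1.09 (SE 0.29, edgeR adjusted p = 0.0258), and psoas and EDL differed by 0.27 (SE 0.31, edgeR adjusted p = 0.614). The call between soleus and psoas was made under 9 of 22 alternatives, including the fit with the animal code as a random effect (limma-voom adjusted p = 0.00615). Over all 22, adjusted p values ran from 0.000161 in DESeq2 to 0.0374 without psoas 3.

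The Gatm to Gamt ratio per kilobase overlapped between all muscles. It spanned 19.3% to 49.7% in EDL, 11.7% to 28.5% in psoas and 18.5% to 103% in soleus, where soleus 3 gave the highest value. None of its 3 differences had an adjusted exact permutation p below 0.36.

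Among the genes of adenylate turnover, Ampd1 was lower and Ampd3 higher in soleus than in both fast muscles, and Ak1 was highest in psoas. Ak1 (ENSMUSG00000026817, chr2:32621758-32635058, plus strand) encodes the cytosolic adenylate kinase of muscle. Its level was 379, 382 and 542 CPM in EDL 1 to 3, 591, 775 and 722 in psoas 1 to 3, and 369, 408, 314 and 360 in soleus 1 to 4. Psoas lay above both other muscles without overlap, and EDL and soleus overlapped. The soleus and psoas difference was -0.94 (SE 0.19, 1.92-fold, edgeR adjusted p = 0.00755), past the p threshold but short of the fold threshold. Psoas and EDL differed by 0.68 (SE 0.21, edgeR adjusted p = 0.0569), and soleus and EDL by -0.26 (SE 0.19, edgeR adjusted p = 0.36). Both thresholds were passed with trimming as a covariate (-1.14, edgeR adjusted p = 0.00727) and without psoas 1 (-1.07, edgeR adjusted p = 0.00974).

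Ampd1 (ENSMUSG00000070385, chr3:103074014-103099720, plus strand) encodes the skeletal muscle AMP deaminase. Its level was 720, 648 and 767 CPM in EDL 1 to 3, 470, 629 and 938 in psoas 1 to 3, and 230, 197, 247 and 261 in soleus 1 to 4. Every soleus library lay below every fast muscle library, and the EDL range sat within that of psoas. Ampd1 fell in soleus by 1.61 on the log2 scale relative to EDL (SE 0.23, 3.04-fold lower, edgeR adjusted p = 0.00104) and by 1.54 relative to psoas (SE 0.23, 2.90-fold lower, edgeR adjusted p = 0.0013). Psoas and EDL differed by -0.07 (SE 0.25, edgeR adjusted p = 0.891). Both soleus calls were made under all 22 alternatives, with adjusted p values of at most 0.00463 against EDL and 0.00578 against psoas.

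Ampd3 (ENSMUSG00000005686, chr7:110768206-110812405, plus strand) encodes the AMP deaminase first described in red blood cells, a form known to increase in denervated and wasting muscle. Its level was 1.35, 1.36 and 0.824 CPM in EDL 1 to 3, 3.19, 2.60 and 2.76 in psoas 1 to 3, and 5.34, 8.67, 6.22 and 7.13 in soleus 1 to 4. The 3 muscles were separate, in the order EDL, psoas, soleus. Ampd3 was 5.69-fold higher in soleus than in EDL (log2 difference 2.51, SE 0.26, edgeR adjusted p = 0.000156), the largest difference among the 9 genes. It was 2.39-fold higher in soleus than in psoas (log2 difference 1.26, SE 0.25, edgeR adjusted p = 0.006), and psoas exceeded EDL by 1.25 (SE 0.27, edgeR adjusted p = 0.0161), which missed the p threshold.

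The Ampd3 difference between soleus and EDL was called under all 22 alternatives, with adjusted p values of at most 0.00166. The soleus and psoas call was made under 12 of 22. It was lost with trimming (edgeR adjusted p = 0.0124) or sex (0.0116) as a covariate, with the replicate block (0.0274) and at counts thinned to the shallowest library (0.0386). It was also lost without psoas 1, 2 or 3 or soleus 2, 3 or 4, with adjusted p values of 0.0101 to 0.0328. Counts of Ampd3 were 15 to 72 in EDL, 39 to 121 in psoas and 78 to 290 in soleus. The 5 erythroid markers, whose cells carry the Ampd3 enzyme, summed to 5.77 to 73.3 CPM in EDL, 16.4 to 137 in psoas and 3.54 to 25.7 in soleus, with overlap between all muscles. Most of these markers are globin genes, and the library preparation included a treatment to remove globin RNA. Their sums therefore cannot compare blood content between muscles. The part of blood cells in the Ampd3 levels was not tested.

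Per kilobase, Ampd1 exceeded Ampd3 in every library. Ampd3 amounted to 0.119%, 0.132% and 0.0677% of Ampd1 in EDL 1 to 3, 0.429%, 0.261% and 0.186% in psoas 1 to 3, and 1.47%, 2.78%, 1.59% and 1.72% in soleus 1 to 4. The 3 muscles did not overlap. The ratio was 17.9-fold higher in soleus than in EDL and 6.65-fold higher than in psoas (exact permutation p = 0.0571 for each, adjusted 0.137, the raw value being the smallest possible). Psoas exceeded EDL 2.69-fold (exact permutation p = 0.1, adjusted 0.171). The summed level of both deaminases was 201 ± 16.8 FPKM in EDL (SD, n = 3), 192 ± 67.1 in psoas (n = 3) and 67.1 ± 7.71 in soleus (n = 4), so Ampd3 at 1.22 ± 0.253 FPKM in soleus left the sum set by Ampd1.

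**Figure D4:**
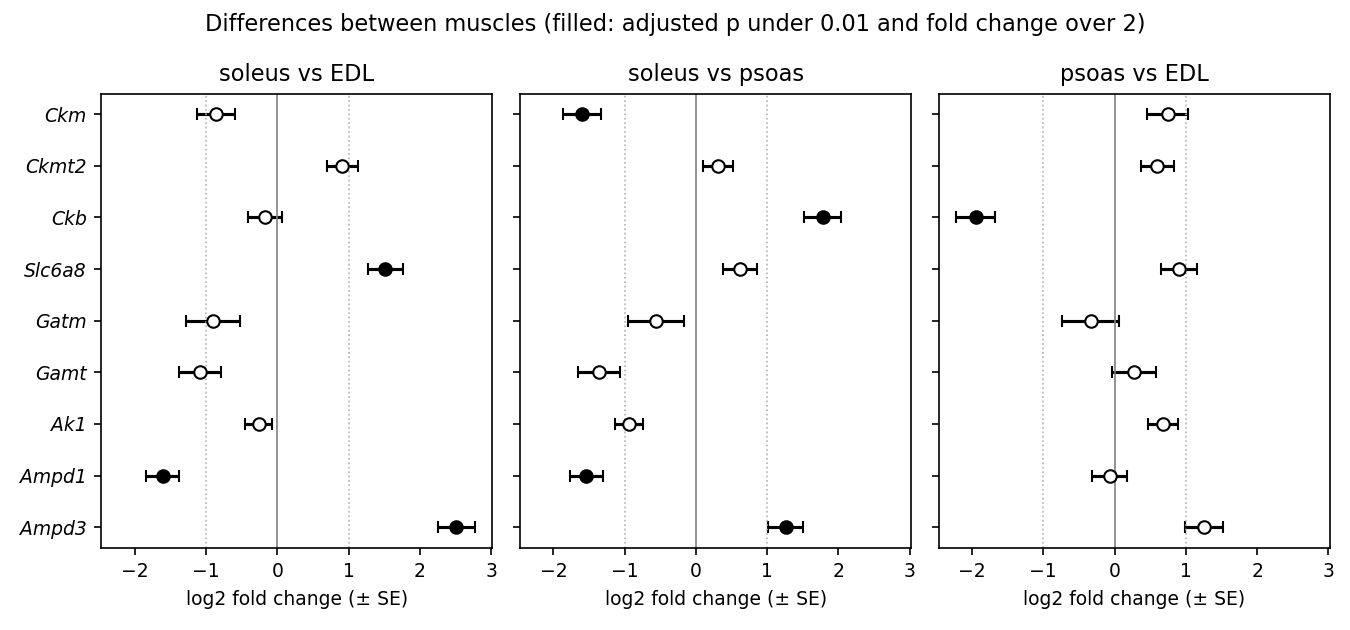
Log2 fold change (horizontal axis) with its SE (whisker) for each of the 9 genes in the 3 comparisons of muscles, from the edgeR quasi-likelihood test. Filled points met both criteria for a call, and dotted lines mark a 2-fold difference. Ampd1 and Ampd3 lie on opposite sides of 0 in both soleus comparisons.

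Some exons of these genes are shared with genes on the opposite strand, and whether the authors counted reads by strand is not given in the sources used here. Ckm shares 451 exon bases with the antisense gene A930016O22Rik, whose level of 15.8 to 166 CPM overlapped between muscles and had no comparison called. Ckmt2 shares 84 bases with 1700119I11Rik, at 0.712 to 8.97 CPM, which did not overlap between soleus and EDL and differed there in the direction of Ckmt2 (log2 difference 2.09, SE 0.58, edgeR adjusted p = 0.0289), short of a call. Ampd3 shares 195 bases with Rnf141, at 20.4 to 45.3 CPM, and 196 bases with B430319F04Rik, which was not analysed here. Rnf141 differed between soleus and EDL by 0.20 (SE 0.22, edgeR adjusted p = 0.545) and between soleus and psoas by -0.18 (SE 0.22, edgeR adjusted p = 0.633).

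Of 42 other listed genes of creatine, adenylate and purine nucleotide metabolism, 36 were measured and the rest were not analysed here. Between soleus and EDL 1 was called higher and 1 lower, between soleus and psoas 2 higher and 0 lower, and between psoas and EDL 0 higher and 1 lower. At an unadjusted p under 0.05 in the edgeR test, 11, 16 and 12 of the 36 differed, the 12 between psoas and EDL beside 29% of all genes. No share over all genes at this cut-off was computed for the soleus comparisons. DESeq2 called 4, 2 and 2 of the 36, beside 1520, 1383 and 1094 of all 16112 genes. The limma-voom calls were 2, 1 and 1, beside 976, 818 and 353 of all genes. The median log2 fold changes of the 36 were -0.07, 0.02 and 0.03, beside -0.05, 0.02 and 0.01 over all genes. Nt5c2, a cytosolic nucleotidase acting on IMP, rose in soleus relative to EDL (log2 difference 1.03, SE 0.22, edgeR adjusted p = 0.00937) and relative to psoas (2.38, SE 0.24, edgeR adjusted p = 0.000158), and it was lower in psoas than in EDL (-1.35, SE 0.25, edgeR adjusted p = 0.00844). Its mean level was 7.62 CPM in EDL, 3.02 in psoas and 15.6 in soleus. Adss, the non-muscle adenylosuccinate synthase that returns IMP toward AMP, fell in soleus relative to EDL by 1.09 on the log2 scale (SE 0.20, edgeR adjusted p = 0.00451). Nme4, a mitochondrial nucleoside diphosphate kinase, rose in soleus relative to psoas (1.73, SE 0.37, edgeR adjusted p = 0.00909), from a mean of 0.479 to 1.56 CPM.

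Mitochondrial enzymes and respiratory subunits are the setting of Ckmt2. Of the 17 listed, 0 were called in any comparison by edgeR, DESeq2 or limma-voom. In the edgeR test, unadjusted p was under 0.05 for 13 (soleus against EDL), 4 (soleus against psoas) and 4 (psoas against EDL). The count for psoas against EDL stood beside 29% of all genes, a share that was not computed for the soleus comparisons. The median log2 fold changes of the 17 genes were 0.61, 0.21 and 0.32 in the same order, beside 0.91, 0.31 and 0.60 for Ckmt2. Ckmt2 amounted to 23.3%, 23.6% and 15.3% of the summed FPKM of these 17 genes in EDL 1 to 3, 28.6%, 24.5% and 20.1% in psoas 1 to 3, and 28.5%, 22.9%, 26.5% and 23.1% in soleus 1 to 4. These shares overlapped between the muscles.

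Genes known to respond to denervation were described beside Ampd3. Of 11 measured, 2 rose and 2 fell in soleus relative to EDL (3.59% and 2.18% of all genes). Relative to psoas, 3 rose and 2 fell in soleus (2.99% and 2.71% of all genes). Between psoas and EDL 0 were called by edgeR, 2 by DESeq2 and 0 by limma-voom. There 4 of the 11 had an unadjusted p under 0.05 in the edgeR test, beside 29% of all genes. Musk, the receptor kinase of the neuromuscular junction, rose by 1.88 relative to EDL (SE 0.40, edgeR adjusted p = 0.0088). Chrnd, an acetylcholine receptor subunit, rose relative to psoas by 1.98 (SE 0.42, edgeR adjusted p = 0.00895). Gadd45a, a stress-response gene, fell in soleus by 1.53 relative to EDL (SE 0.26, edgeR adjusted p = 0.00301) and by 1.93 relative to psoas (SE 0.26, edgeR adjusted p = 0.000805). Called members of this list thus lay in both directions in soleus.

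The genes most similar in pattern were taken as the 3 with the highest Pearson correlation of log2 CPM across the 10 libraries, among 12663 genes. These values describe libraries of 3 muscles and carry no test. For Ckm they were C2cd2 (r = 0.992), Pgam2 (0.986) and Pygm (0.984), for Ckmt2 Coq3 (0.962), Prkg1 (0.96) and Nceh1 (0.959), and for Ckb Lrrk2 (0.988), Thbs2 (0.978) and Zfp185 (0.972). Slc6a8 was most like Prob1 (0.993), Tmem63b (0.978) and Lpgat1 (0.978), Gatm most like Gm28043 (0.934), Ppp4r1l-ps (0.894) and Cdh19 (0.893), and Gamt most like Zim1 (0.969), Sec61a2 (0.965) and Mdga1 (0.961). Ak1 came closest to Tmem170b (0.986), Cop1 (0.978) and Rpap2 (0.977), Ampd1 to Cyp4f39 (0.98), Cept1 (0.978) and Slc37a4 (0.965), and Ampd3 to 5730419F03Rik (0.985), Enah (0.974) and Sim2 (0.965). Among the members themselves, the highest coefficient was 0.864 between Ckm and Ak1 and the lowest was -0.869 between Ampd1 and Ampd3, again over the 10 libraries, which differ by muscle, trimming and depth.

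**Figure D5:**
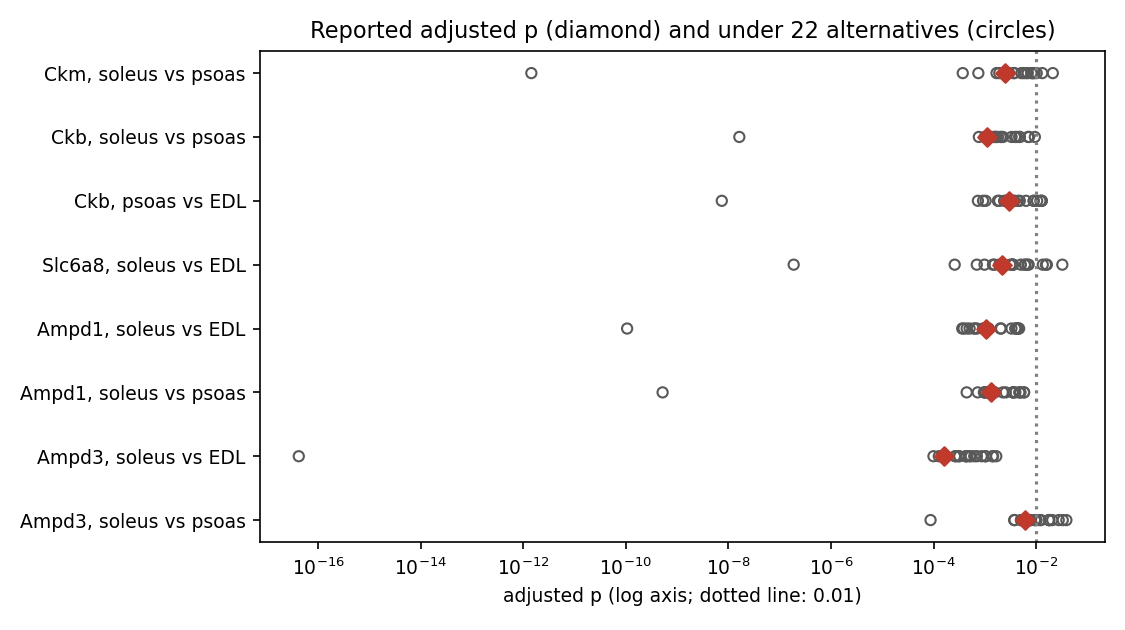
Benjamini-Hochberg adjusted p (log horizontal axis) of the 8 called differences in the reported edgeR test (diamonds) and under 22 alternatives in scaling, tool, filter, covariate or left-out library (circles), with a dotted line at 0.01. All circles of Ampd1 in both soleus comparisons, Ampd3 against EDL and Ckb between soleus and psoas lie below the line, and the leftmost circle of each difference is DESeq2.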

How the data were processed

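Total RNA from 10 wild-type mouse muscles was sequenced after depletion of ribosomal and globin RNA (Illumina TruSeq Stranded Total RNA with Ribo-Zero Globin). The deposited values are whole-number counts per gene, not normalized, which the authors made from TopHat2 2.1.1 alignments (GRCm38.p4 annotation) with R tools, after read trimming of part of the libraries. The submitters' processing notes also name Trimmomatic 0.32, FastQC, BWA and Picard. The authors kept genes with at least 10 counts in at least 3 libraries, which left 16112, and 16032 of them matched a symbol and exon length in GENCODE M21 (GRCm38).

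Counts were tested in 1 edgeR 4.0.16 quasi-likelihood fit over all libraries with muscle as the only term, TMM factors and Benjamini-Hochberg adjustment over all genes (R 4.3.3). CPM were scaled by TMM factors, log2 CPM used a prior count of 2, and FPKM used the union of exons. DESeq2 1.42.0 and limma 3.58.1 served as alternatives. Ratios were compared by two-sided exact permutation tests. Scripts were tested on simulated data.

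The 9 genes and all lists were chosen with earlier results of these data known. Named genes were the members, the 3 genes most similar to each, pathway genes past the thresholds, and at most 3 past the thresholds from each of the fiber type, mitochondrial and denervation lists, by largest fold change. Genes overlapping a member on the opposite strand were named outside this rule, after their values had been seen. Other alternatives left out each library, changed scaling, filters or depth, or added trimming, sex, a run proxy built from trimming and age, a replicate block or the animal code. Depth was 12737971 to 50431713 counts per library, so a floor of 3 counts stands for 0.0595 to 0.236 CPM. No pair of libraries was identical. Replicates of a muscle had different animal codes, and deviations from the muscle means correlated at 0.253 to 0.496 in the 3 pairs of libraries with a shared code and at -0.584 to 0.552 in the 30 pairs of different muscles without one.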

Additional observations from a re-analysis of the deposited data

Results flagged for a closer look

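Among the 13 sets of 4 soleus values examined (9 genes and 4 ratios), 1 library stood far from the others, and chance alone gives about 1 such set in 20. The log2 ratio of Ckmt2 to Ckm in soleus 3 was -0.0217, while the other soleus libraries gave -0.383, -0.41 and -0.353. The gap to its nearest neighbour was 0.853 of the whole range. Soleus 3 was the shallowest library, at 12737971 counts, and came from the youngest mouse, at 32 days. By the study's supplement it also had the lowest RNA integrity of the soleus libraries. Its Ckmt2 level of 2070 CPM and Ckm level of 4110 CPM were both inside the range of the other soleus libraries.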

How the results depend on the processing

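Ampd1 in both soleus comparisons, Ampd3 between soleus and EDL and Ckb between soleus and psoas were called under all 22 alternatives. Of the 9 genes, 6 in place of 3 differed between soleus and EDL, and 3 in place of 1 between psoas and EDL, at an adjusted p under 0.05 with no fold minimum, a criterion that admits more genes by construction. Between psoas and EDL, 2 genes were called in DESeq2 and 2 with the run proxy, Ampd3 being the added gene in both. With a library left out, the counts called were 2 to 3 between soleus and EDL, 2 to 5 between soleus and psoas (4 with all libraries, and 2 without soleus 4) and 0 to 2 between psoas and EDL (0 without EDL 1, psoas 1, psoas 2 or psoas 3, and 2 without EDL 3, where Slc6a8 was added). Over all genes the calls moved too, to 385 to 1511 (929 with all libraries), 493 to 964 (917) and 61 to 963 (340, with 963 without EDL 3). With the replicate number as a block, 3, 2 and 1 genes were called in the 3 comparisons, among 586, 539 and 146 of all genes. Correlations of deviations were over 0.1 in 4 of 9 same-numbered pairs (range -0.293 to 0.552) and in 9 of 24 differently numbered pairs (range -0.584 to 0.496). By age and sex, soleus 2 was not from the mouse of EDL 2 or psoas 2. By age, soleus 3 was not from the mouse of EDL 3 or psoas 3. The number therefore does not pair these soleus libraries with the fast muscles. Pairing of the other same-numbered libraries is uncertain, and the block result is given only as a check.

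Direction changed in 2 differences near 0. Ckb between soleus and EDL was 0.0852 with the run proxy, and Ampd1 between psoas and EDL was 0.11 without psoas 1 (lowest value with a library left out -0.37). In the untrimmed libraries only, the log2 ratio differences were 2.23 for Ckmt2 to Ckm and 4.75 for Ampd3 to Ampd1 between soleus and EDL, and 0.14 for Gatm to Gamt between psoas and EDL, in place of 1.74, 4.16 and -0.76. These subsets hold 1 EDL and 1 psoas library, and the cause was not tested. With a library left out, the ratio difference of Ckmt2 to Ckm was 1.5 to 1.91 between soleus and EDL and 1.82 to 2.05 between soleus and psoas, and that of Ampd3 to Ampd1 was 3.87 to 4.35 and 2.45 to 3.05. Transcript lengths in place of exon unions were tried after the data had been seen. The members with the fewest counts per library were Gatm (25 to 244), Ampd3 (15 to 290) and Gamt (23 to 293).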
